A study of Mus musculus with 2 samples.

Results

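The genes described here encode receptors for interleukin-1 (IL-1) and for microbial products, a natural antagonist of IL-1, and feedback proteins that NF-kB induces. They are 10 genes taken by name from the 49492 gene symbols of the deposited tables: Il1r1, Il1rap, Il1rl1, Il1rn, Tlr2, Tlr3, Tlr4, Nfkbia, Tnfaip3 and Nfkbiz. All 10 were found in both tables. The study sequenced RNA of Nestin+ mesenchymal stromal cells in culture, from bone marrow and from heart, both from Nestin-GFP transgenic C57BL/6 mice 7 days old and both at passage 10. In these mice a green fluorescent reporter follows the gene of the intermediate filament protein nestin. The heart cells were grown in DMEM/F12 and IMDM with 20 ng/ml EGF, 20 ng/ml bFGF, 4 ng/ml cardiotrophin-1, 1% N2, 2% B27, 1% L-glutamine, 0.1 mM β-mercaptoethanol and penicillin/streptomycin. The bone marrow cells were grown in another medium, which the labels give only by a citation, so tissue and medium cannot be told apart. There was 1 library per tissue, called marrow cells and heart cells below, so differences have no replicate check and no p-value is given. How many animals gave each culture is not given in the sources used here.

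IL-1 alpha and beta bind the receptor encoded by Il1r1, which then recruits the accessory protein of Il1rap, and the cytosolic domains of this pair bind the adaptor MyD88. Toll-like receptors carry the same kind of cytosolic domain and sense bacterial lipopeptides, double-stranded RNA or lipopolysaccharide. Both families activate the transcription factor NF-kB, which induces inflammatory genes together with inhibitors of its own pathway, and stromal cells are known as responders to these signals.

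Values are RPKM (reads scaled by gene model length and library size). The reads behind them were recovered from the deposited values and came to 53999963 in the bone marrow library and 64872683 in the heart library. A gene was counted as higher in a library when its log2 ratio, log2((heart + 1)/(bone marrow + 1)), was 1 or more in size with 5 RPKM or more in the higher library. Counts of genes at least 2-fold higher use this rule, which leaves out genes below 5 RPKM whatever their ratio of RPKM. Over the 6049 genes with 5 RPKM or more in each library the median log2 ratio was -0.14, so a gene at 0 on this scale lies slightly toward the heart cells relative to most genes. All 8 stromal markers reached 5 RPKM in at least 1 library, led by Col1a1 at 1777 RPKM in marrow cells and 1751 in heart cells. Of the 8, 5 (62.5%) were at least 2-fold higher in heart cells and none was in marrow cells, against 7.56% and 9.51% of all genes that reached 5 RPKM. Thy1 and Lum, named after their values were seen, stood at 0.0603 and 0.393 RPKM in marrow cells and at 16.7 and 31.8 in heart cells. Nes stood at 1.20 RPKM in marrow cells and 8.74 in heart cells. Of 8 macrophage and myeloid markers 7 were below 1 RPKM in both libraries, and 1 of them was listed at 0 in both. Lyz2, the most abundant, stood at 1.05 and 1.08 RPKM, and the 8 summed to 1.98 RPKM in marrow cells and 1.96 in heart cells. No neutrophil (6), mast cell (6), lymphocyte (8), epithelial (4) or cardiomyocyte (6) marker reached 1 RPKM, and of 6 endothelial markers only Vwf did, at 1.13 RPKM in marrow cells.

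Of the 10 genes, 3 were at least 2-fold higher in heart cells by this rule and none was in marrow cells. The 3 were the IL-1 receptor gene Il1r1, its accessory protein gene Il1rap and Nfkbiz, which encodes the inducible nuclear protein IkappaB-zeta. Of the 7 that reached 5 RPKM in either library these are 42.9%. The background over all 7659 genes that reached 5 RPKM in either library was 7.56% toward the heart cells and 9.51% toward the marrow cells by the same rule. The median log2 ratio of the 9 that reached 1 RPKM in either library was 0.64, with 7 above 0 and 2 below. Over the 11355 genes that reached 1 RPKM it was -0.11, with 42.0% above 0. Il1rl1 was below 1 RPKM in both libraries and had the lowest ratio of RPKM of the 10. By RPKM alone, without the added 1 and the floor, Il1rl1 was 11.6-fold and Tlr2 2.16-fold higher in marrow cells.

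**Figure D1:**
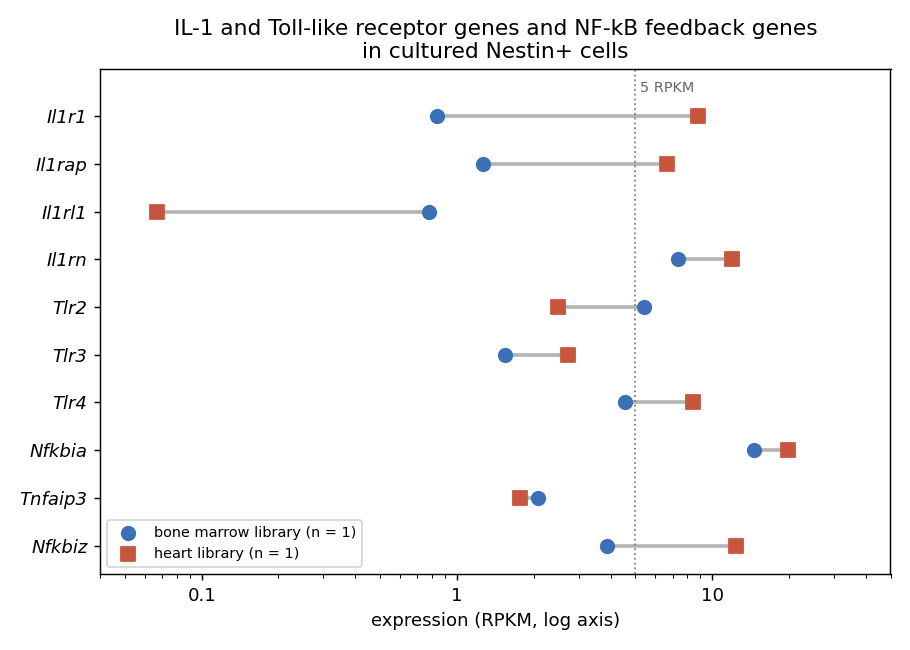
Expression of the 10 genes in RPKM on a log axis, with 1 point for the bone marrow library (circles) and 1 for the heart library (squares) and a dotted line at the 5 RPKM floor. Il1r1, Il1rap, Tlr4 and Nfkbiz cross the floor from left to right between bone marrow and heart, Il1rl1 lies far to the left in heart cells, and Tnfaip3 has nearly the same level in both.

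Il1r1 encodes the signalling receptor for IL-1 alpha and IL-1 beta. It lies on chromosome 1 from 40225080 to 40317257, plus strand (ENSMUSG00000026072, GRCm38). Il1r1 stood at 0.832 RPKM in marrow cells, from 286 reads, and at 8.83 RPKM in heart cells, from 3646 reads. The heart level was 10.6 times that of bone marrow, with a 95% counting interval of 9.41 to 12.0, and the log2 ratio was 2.42. Among the 11355 genes at or above 1 RPKM, 98.2% had a lower ratio. The gene was thus near the bottom of the expressed range in marrow cells, where 5.47% of those genes had a lower level, and in its middle in heart cells, where 58.4% did.

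Il1rap encodes the accessory chain that the IL-1, IL-33 and IL-36 receptors share. The gene is on chromosome 16 from 26581704 to 26730117, plus strand. Il1rap stood at 1.27 RPKM in marrow cells (779 reads) and 6.68 in heart cells (4921 reads), a ratio of 5.26 with a counting interval of 4.87 to 5.68. Its log2 ratio of 1.76 was lower than that of Il1r1, and the counting intervals of the ratios do not overlap. Il1r1 stood at 0.655 times the RPKM of Il1rap in marrow cells and at 1.32 times in heart cells. That comparison depends on gene length, because the Il1rap gene model of 11360 bases joins the exons of 7 transcripts, of which the longest coding one has 4520. Divided by that transcript alone, the same reads would give Il1rap 16.8 RPKM in heart cells and 3.19 in marrow cells, above Il1r1 in both. The ratio between libraries does not depend on the length used. RPKM adds up all transcripts of a gene, so membrane-bound and soluble forms of Il1rap and Il1rl1 cannot be told apart.

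The sequences just before the annotated starts of these receptor genes are shown because both genes were higher in heart cells by several fold. They are 250 bases for Il1r1 (chr1:40224830-40225079, plus strand) and 249 for Il1rap (chr16:26581455-26581703, plus strand), 5′ to 3′, from RefSeq on GRCm38.p6. Both are in lower case throughout because neither holds a match to the kappaB consensus, the binding motif of NF-kB, on either strand.
Il1r1: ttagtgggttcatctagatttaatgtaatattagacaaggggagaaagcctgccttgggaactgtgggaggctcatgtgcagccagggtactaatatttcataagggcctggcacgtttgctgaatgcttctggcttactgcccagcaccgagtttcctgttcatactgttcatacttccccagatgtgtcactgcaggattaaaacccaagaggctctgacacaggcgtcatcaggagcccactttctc
Il1rap: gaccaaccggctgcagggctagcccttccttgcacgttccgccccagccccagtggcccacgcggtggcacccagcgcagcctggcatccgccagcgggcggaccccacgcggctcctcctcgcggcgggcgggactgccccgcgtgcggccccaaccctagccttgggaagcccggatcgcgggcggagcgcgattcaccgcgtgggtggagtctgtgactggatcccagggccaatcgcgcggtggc
The stretches differ in base composition, with 48.4% G and C before Il1r1 and 74.3% before Il1rap. RefSeq gives Il1r1 another start further along the gene, and the window around that one holds 1 match, on the minus strand from 232 to 223 bases before the start, shown in capitals within 30 bases (chr1:40266344-40266373).
Il1r1 second start: cagggattttGGAATGCCCCcaaggagatg
The deposited values do not say which start was used.

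Il1rl1 encodes ST2, the receptor for IL-33, which is best known on mast cells and on some lymphocytes and also exists as a soluble decoy. The gene is on chromosome 1 from 40429570 to 40465415, plus strand. Il1rl1 went the other way from Il1r1 and Il1rap, at 0.776 RPKM in marrow cells (289 reads) and 0.0671 in heart cells (30 reads). By RPKM, which scales the reads by library size, it was 11.6-fold higher in marrow cells, with a counting interval of 7.93 to 17.5. Both levels are under 1 RPKM, so the log2 ratio with the added 1 was only -0.74 and the gene was not counted as higher. Of 6 mast cell markers 4 were listed at 0 in both libraries, and the 6 summed to 0.321 RPKM in marrow cells, all of it Kit, and 0.0925 in heart cells. The 8 lymphocyte markers summed to 0.907 RPKM in marrow cells and 0.333 in heart cells, with 3 at 0 in both. The part of such cells in the Il1rl1 level was not tested, and in bulk RNA fewer cells of a type cannot be told apart from less RNA per cell.

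Il1r1 and Il1rl1 belong to a cluster of IL-1 receptor family genes on chromosome 1 that spans 478 kb from Il1r2 to Il18rap. Il1rl2, which encodes the IL-36 receptor, starts 7.35 kb beyond the end of Il1r1. Il1rl2 stood at 1.11 RPKM in marrow cells (408 reads) and 9.01 in heart cells (3981 reads), 8.12-fold higher in heart cells with a counting interval of 7.33 to 9.02. Il1rl1 follows after a gap of 62.0 kb, and there the order of the libraries turns. Il1r1 was at 1.07 times the RPKM of Il1rl1 in marrow cells and at 132 times in heart cells. The order in marrow cells depends on gene length. Over the longest coding transcripts Il1r1 stood at 0.910 RPKM there and Il1rl1 at 1.01. The outer genes were barely detected. Il1r2, the decoy receptor for IL-1, had 0 reads in marrow cells and 6 in heart cells, the IL-18 receptor gene Il18r1 had 1 and 0, and its partner Il18rap had 33 and 17. Il1r2, Il18r1 and Il18rap were named after their values were seen, as members of the cluster.

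**Figure D2:**
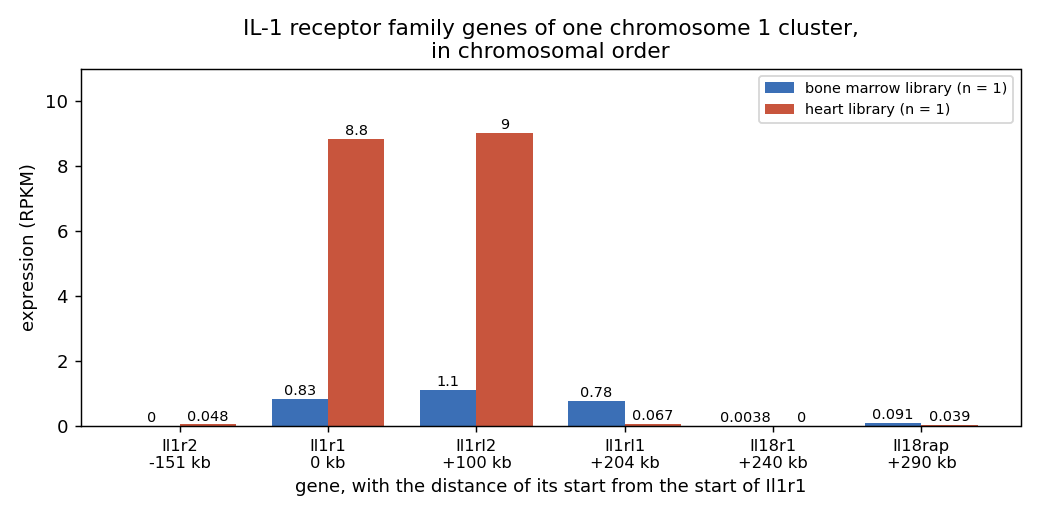
RPKM of the 6 IL-1 receptor family genes of the chromosome 1 cluster in chromosomal order, with the distance of each start from that of Il1r1 in kb and 1 bar per library. The neighbours Il1r1 and Il1rl2 reach 8.83 and 9.01 RPKM in heart cells, Il1rl1 is the only gene of the 3 above 0.5 RPKM in marrow cells that is lower in heart cells, and Il1r2, Il18r1 and Il18rap stay below 0.1 RPKM.

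Il1rn encodes the IL-1 receptor antagonist, which occupies the IL-1 receptor without activating it. Its position is chromosome 2 from 24336853 to 24351494, plus strand. Il1rn was among the more abundant of the 10 in both libraries, at 7.35 RPKM in marrow cells and 11.97 in heart cells, from 1237 and 2422 reads. The ratio of 1.63 had a counting interval of 1.52 to 1.75, and the log2 ratio of 0.64 was under the 2-fold rule. Antagonist and receptor therefore stood in different proportion in the libraries: Il1rn was at 8.83 times the RPKM of Il1r1 in marrow cells and at 1.36 times in heart cells. Secreted and intracellular forms of the antagonist come from different starts of this gene and are summed in these values.

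Most ligands of the IL-1 family were scarce. Il1b was listed at 0 in both libraries, and Il1a had 1 read in marrow cells and 2 in heart cells. Il33, the ligand of the Il1rl1 receptor, which stromal and barrier cells hold in the nucleus and release on damage, stood at 0.180 RPKM in marrow cells (28 reads) and 16.7 in heart cells (3127 reads). It was 93.0-fold higher in heart cells, with a counting interval of 64.2 to 140.1. Ligand and receptor of this pair thus went opposite ways, with Il33 high where Il1rl1 had 30 reads. Il18, the most abundant ligand gene in marrow cells, stood at 3.47 RPKM there and 0.613 in heart cells. Of 9 ligand genes 3 reached 1 RPKM in either library and 4 were listed at 0 in both. Only 1, Il33, reached 5 RPKM, in heart cells only, and it alone met the rule, toward the heart cells. Over all genes that reached 5 RPKM in either library 7.56% met it toward the heart cells and 9.51% toward the marrow cells. A single gene gives no share to set beside these. By RPKM Il18 was 5.66-fold higher in marrow cells, with a counting interval of 4.02 to 8.13, but its level was too low for the rule.

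Among the Toll-like receptors, Tlr4 and Tlr3 lay toward the heart cells and Tlr2 toward the marrow cells, and none met the 2-fold rule. Tlr4, which encodes the lipopolysaccharide receptor, lies on chromosome 4 from 66827584 to 66930284, plus strand. Tlr4 stood at 4.56 RPKM in marrow cells and 8.45 in heart cells, from 1369 and 3044 reads. The ratio was 1.85, with a counting interval of 1.74 to 1.97 that ends just under 2 at the deposited scaling. Scaling to the median ratio multiplies heart levels by 1.11. The log2 ratio of Tlr4 with the added 1 was then 0.90, still under the rule. Tlr3, which encodes the endosomal receptor for double-stranded RNA, lies on chromosome 8 from 45395665 to 45411080, minus strand. Tlr3 stood at 1.54 RPKM in marrow cells and 2.73 in heart cells, from 434 and 922 reads, a ratio of 1.77 with a counting interval of 1.58 to 1.99. In both libraries Tlr4 was at about the same multiple of Tlr3, 2.96 times in marrow cells and 3.09 times in heart cells.

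Tlr2, whose product senses bacterial lipoproteins in pairs with Tlr1 or Tlr6, lies on chromosome 3 from 83836272 to 83841767, minus strand. Tlr2 stood at 5.40 RPKM in marrow cells and 2.50 in heart cells, from 879 and 488 reads. By RPKM it was 2.16-fold higher in marrow cells, with a counting interval of 1.94 to 2.42, but its log2 ratio of -0.87 with the added 1 was short of the 2-fold rule. Tlr4 was at 0.845 times the RPKM of Tlr2 in marrow cells and at 3.38 times in heart cells, so their order differed between the libraries. That order in marrow cells depends on gene length: over the longest coding transcripts Tlr4 stood at 6.22 RPKM and Tlr2 at 5.40, with Tlr4 above Tlr2 in both libraries. Tlr6, the partner of Tlr2, stood at 2.91 RPKM in marrow cells (585 reads) and 0.505 in heart cells (122 reads), and the other partner, Tlr1, had 24 reads in marrow cells and 4 in heart cells. Tlr5, the flagellin receptor, had 264 reads in marrow cells and 0 in heart cells. Tlr1 and Tlr5 were named after their values were seen. Of the 9 other Toll-like receptor genes only Tlr5 and Tlr6 reached 1 RPKM in either library, none reached 5, and so none could meet the rule.

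Genes of proteins that Toll-like receptors need lay on both sides. Ly96, which encodes the MD-2 protein that binds lipopolysaccharide for Tlr4, stood at 5.48 RPKM in marrow cells and 8.65 in heart cells. Tlr4 was at 0.833 times the RPKM of Ly96 in marrow cells and at 0.976 times in heart cells. Cd14, which hands lipopolysaccharide to that complex, stood at 2.79 RPKM in marrow cells and 2.97 in heart cells. Lbp, which encodes the lipopolysaccharide binding protein and was named after its values were seen, stood at 3.90 and 0.680 RPKM. Unc93b1, which encodes the escort of Tlr3 to the endosome, stood at 8.40 RPKM in marrow cells and 3.60 in heart cells, a log2 ratio of -1.03. Of these 9 co-receptor and chaperone genes 4 reached 5 RPKM and only Unc93b1 met the rule, toward the marrow cells, while Tlr3 lay toward the heart cells. Over all genes that reached 5 RPKM in either library 9.51% met it toward the marrow cells. The chaperone gene Hsp90b1 was the most abundant of the 9, at 241 RPKM in marrow cells and 310.0 in heart cells.

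**Figure D3:**
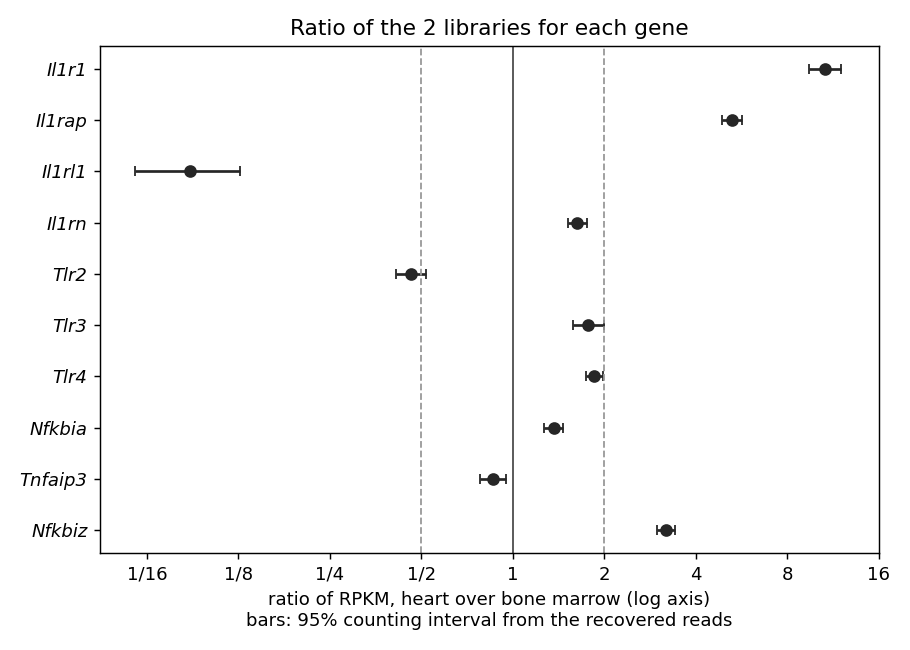
Ratio of RPKM in heart cells over bone marrow for the 10 genes on a log axis, with bars for the 95% counting interval from the recovered reads and dashed lines at a 2-fold difference. Il1r1, Il1rap and Nfkbiz lie wholly above the upper dashed line and Il1rl1 wholly below the lower one. At the deposited scaling the interval of Tlr2 spans the lower line and those of Tlr3 and Tlr4 end just below 2.

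The adaptor Myd88, which carries the signal of the IL-1 receptor and of most Toll-like receptors, stood at 11.2 RPKM in marrow cells and 19.5 in heart cells, a log2 ratio of 0.75. Tirap, the bridge of Tlr2 and Tlr4 to MyD88, stood at 3.34 RPKM in marrow cells and 4.20 in heart cells, and Ticam1, the adaptor of Tlr3, at 5.29 and 4.93. Ticam2, the bridge between Tlr4 and Ticam1, was at or below 0.0283 RPKM in both libraries. Of 22 adaptor and kinase genes 20 reached 1 RPKM and 14 reached 5 RPKM, the latter beside shares of 7.56% toward heart and 9.51% toward marrow over all such genes. Of the 14, none was at least 2-fold higher in heart cells and 1 was in marrow cells. That gene was Irak3, which encodes IRAK-M, a kinase-like inhibitor of the pathway, at 5.27 RPKM in marrow cells and 2.02 in heart cells. Tab2, which encodes a partner of the kinase TAK1, was the most abundant in marrow cells, at 33.1 RPKM against 16.3 in heart cells. The median log2 ratio of the 20 was 0.03, near the all-gene median of -0.11.

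The feedback genes did not move together. Nfkbia encodes IkappaB-alpha, which holds NF-kB in the cytosol and is made again after each activation. Its position is chromosome 12 from 55489411 to 55492647, minus strand. Nfkbia was the most abundant of the 10 genes in both libraries, at 14.5 RPKM in marrow cells and 19.8 in heart cells, from 1239 and 2028 reads. The ratio was 1.36, with a counting interval of 1.27 to 1.46. Tnfaip3 encodes A20, an enzyme that edits ubiquitin chains and shuts down signalling from the same receptors. It lies on chromosome 10 from 19000910 to 19015657, minus strand. Tnfaip3 stood at 2.07 RPKM in marrow cells and 1.77 in heart cells, from 808 and 832 reads, a log2 ratio of -0.15, which is -0.01 after the all-gene median of -0.14 is taken off. Its ratio of 0.857, with a counting interval of 0.777 to 0.945, was the closest to 1 of the 10.

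Nfkbiz encodes IkappaB-zeta, which NF-kB induces and which acts in the nucleus as a cofactor for secondary response genes such as Il6. It lies on chromosome 16 from 55811375 to 55838899, minus strand. Nfkbiz stood at 3.88 RPKM in marrow cells (1051 reads) and 12.4 in heart cells (4024 reads). The ratio of 3.19 had a counting interval of 2.98 to 3.41. The log2 ratio was 1.45. The counting intervals of the 3 feedback genes do not overlap one another, so Nfkbiz, Nfkbia and Tnfaip3 differed in ratio beyond counting error in these 2 libraries.

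Promoter sequence is shown for Nfkbia, Tnfaip3, Tlr2 and Tlr3 because their windows hold a match to the kappaB consensus. Of the 10 genes 8, all but Tlr4 and Nfkbiz, had entries in the RefSeq promoter table, with 13 windows of 300 bases (250 before the start and 50 after), and 5 windows of 5 genes held a kappaB match on either strand. Over all 32851 windows a match was found in 8.46%. The 5 genes were Il1r1 at its second start, Tlr2, Tlr3, Nfkbia and Tnfaip3, and a match is a description of the letters and not a measured site. The 250 bases before Nfkbia (chr12:55492648-55492897, minus strand, GRCm38.p6), 5′ to 3′ with the match in capitals, hold it from 29 to 20 bases before the start.
Nfkbia: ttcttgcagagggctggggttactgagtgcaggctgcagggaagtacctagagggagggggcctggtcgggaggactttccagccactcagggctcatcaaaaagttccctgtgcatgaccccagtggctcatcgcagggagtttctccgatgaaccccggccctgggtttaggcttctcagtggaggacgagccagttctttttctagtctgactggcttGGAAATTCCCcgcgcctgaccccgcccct
Tnfaip3 has a stretch with a match on each strand from 125 to 116 bases before its first RefSeq start and another from 12 to 3 bases before it, shown within 30 bases (chr10:19015516-19015545 and chr10:19015403-19015432, minus strand).
Tnfaip3 far: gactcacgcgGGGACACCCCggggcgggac
Tnfaip3 near: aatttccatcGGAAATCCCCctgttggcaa
Tlr2 has overlapping matches on both strands from 173 to 163 bases before its RefSeq start (chr3:83841762-83841790, minus strand) and more across the start itself. Tlr3 has 1 from 211 to 202 bases before its RefSeq start (chr8:45410572-45410601, minus strand). The deposited gene models of Tnfaip3, Tlr2 and Tlr3 begin upstream of these RefSeq starts. The Tnfaip3 and Tlr3 stretches therefore lie inside the models, and the Tlr2 stretch shown overlaps the edge of its model.
Tlr2: aggacacctGGGGAATTCCCacacggagc
Tlr3: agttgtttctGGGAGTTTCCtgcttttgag
Of the 8 genes with entries, Il1rap, Il1rl1 and Il1rn held no match in any window, and Il1r1 held 1 only at its second start. Whether a match bears on the ratio between the libraries was not tested.

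Other feedback genes of the pathway were counted as higher about as often as genes in general. Of 16 further feedback genes 14 reached 1 RPKM, with a median log2 ratio of -0.16, and 11 reached 5 RPKM. Of the 11, 1 (9.09%) was at least 2-fold higher in heart cells and 1 was in marrow cells. The shares over all genes that reached 5 RPKM in either library were 7.56% and 9.51%. The gene higher in heart cells was Bcl3, which like Nfkbiz encodes a nuclear member of the IkappaB family, at 2.15 RPKM in marrow cells and 9.62 in heart cells. Atf3, a stress-induced repressor, stood at 8.32 RPKM in marrow cells and 1.37 in heart cells. Dusp1, which encodes a phosphatase of stress kinases, was the most abundant, at 36.7 and 17.9 RPKM, just short of the rule.

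All 9 genes for NF-kB subunits and IkB kinases reached 1 RPKM and 6 reached 5 RPKM. Of the 6, 1 (16.7%) was at least 2-fold higher in heart cells and 1 was in marrow cells. The shares over all genes that reached 5 RPKM in either library were 7.56% and 9.51%. Relb, the subunit of the non-canonical pathway, stood at 2.55 RPKM in marrow cells and 8.07 in heart cells, a log2 ratio of 1.35. Ikbkg, which encodes the kinase scaffold NEMO, stood at 17.7 and 5.88 RPKM. Rela, the main activating subunit, was the most abundant of the 9, at 31.0 RPKM in marrow cells and 19.6 in heart cells.

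Genes that NF-kB is known to induce in stromal cells leaned toward the heart cells. Of 27 such genes 16 reached 1 RPKM, 10 were at least 2-fold higher in heart cells, 2 were in marrow cells and 4 were neither, and the median log2 ratio of the 16 was 2.49. The 10 are 76.9% of the 13 that reached 5 RPKM. Over all genes that reached 5 RPKM in either library the shares were 7.56% toward the heart cells and 9.51% toward the marrow cells. This list was drawn up with earlier results of these data known, so its direction is not independent evidence. The largest log2 ratios, with the added 1, were those of the matrix protease gene Mmp3, the acute phase gene Saa3, the metalloreductase gene Steap4 and the chemokine gene Ccl2. Their levels in heart cells were 369, 179, 54.4 and 123 RPKM, and in marrow cells 0.0925, 0.284, 0.0411 and 4.38. Ccl7, the most abundant of the list in marrow cells, stood at 22.0 RPKM there and 123 in heart cells. The 2 toward the marrow cells, named after their values were seen, were Ptgs2, which encodes cyclooxygenase-2, at 21.6 RPKM against 3.86, and the collagenase gene Mmp13, at 7.23 against 0.346. Chemokine genes and Saa3 have near copies in the genome, and their values are uncertain where reads were shared.

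Within each library the 10 genes kept a partly different order. In bone marrow Nfkbia, Il1rn, Tlr2 and Tlr4 led, and Il1r1 and Il1rl1 came last with levels whose counting intervals overlap, 0.739 to 0.935 and 0.689 to 0.871 RPKM. In heart Nfkbia led, Nfkbiz and Il1rn followed at 12.4 and 11.97 RPKM with overlapping intervals, and then Il1r1 and Tlr4 at 8.83 and 8.45, which also overlap. Tlr3 and Tlr2 were next to each other in heart cells, at 2.73 and 2.50 RPKM, with overlapping intervals, and Il1rl1 was last. Neighbours in either order other than these pairs differed beyond counting error, which leaves out the spread between cultures. Orders between genes depend on the gene models, and with the longest coding transcript as the length Il1rap moves in heart cells from the sixth place to the second and Tlr4 passes Tlr2 in marrow cells, among other changes of place.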

How the data were processed

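Total RNA (1 ug) of each culture was made into 1 Illumina library, per the labels' protocols. The authors deposited RPKM for 49585 rows, per the file headers. The sources used here name no aligner, counter or strand setting. The submitters' processing notes name mm8, whereas the regions of 45149 rows (91.1%) equal those of GENCODE M21 genes on GRCm38, the build used for coordinates. Where rows shared a symbol, the 1 with the highest mean was kept. Rows that overlap Il1r1, Il1rap or Tlr3 stood at or below 0.176 RPKM, and no row overlaps the other 7.

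RPKM multiplied by the exon-union length of the model gave whole multiples of 1 read, from which the totals follow. Of 14247 genes above 0 in both libraries with a length, 12288 (86.2%) came out whole within 0.02 reads. For Il1rn and Nfkbia the length was instead the smallest, from 100 to 30000 bases, that made both libraries whole within 0.001 reads. These lengths are 3118 bases for Il1rn, the union of its annotated transcripts without the retained intron, and 1577 for Nfkbia. In 1061 genes of known length with at least 100 reads this returned the known length for 81.5% and a divisor of it for 17.5%, so these reads may be a fraction of the true ones. Ratios between libraries are not affected. Intervals of ratios are exact conditional (Clopper-Pearson) 95% intervals, and those of levels are exact Poisson intervals. Reads are not independent molecules, so intervals cover counting error only.

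The log2 ratio adds a pseudocount of 1 RPKM and understates differences of low genes. With 1 library per tissue no test was run. The 10 genes and the lists of pathway genes (109 in 8 lists, all found, 4 under older symbols) and markers were chosen with earlier results of these data known. Named genes are the 10, the direct partners, up to 4 genes of each list with the largest log2 ratio among those meeting the 2-fold rule, the most abundant of each list in each library, and Nes; exceptions are stated. Promoters came from RefSeq (GRCm38.p6). Alternatives were other pseudocounts, floors, fold thresholds and scalings, and summed rows. Software was Python 3.11.15 with scipy 1.17.1, numpy 2.4.6, matplotlib 3.10.9 and pandas 2.3.3. The steps were tested on simulated data of 45149 rows for this comparison: both totals came back exactly, all 200 genes changed 3- or 8-fold were called the right way, and 94.0% of intervals covered the simulated fold. The 200 were drawn only from genes above 10 RPKM on average, which most genes described here do not reach. Simulated reads were Poisson draws without any spread between cultures, so the share of intervals that covered says nothing about that spread. Calls of 2-fold changes and of changed genes at lower levels were not tested.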

Additional observations from a re-analysis of the deposited data

How the results depend on the processing

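The count of 3 genes at least 2-fold higher in heart cells held with a pseudocount of 0.1 RPKM, a floor of 1 RPKM or none, each of the 3 scalings (median ratio, upper quartile, trimmed mean of log ratios) and summed rows. It was 1 with a pseudocount of 5 RPKM and 1 at a 4-fold threshold, Il1r1 in both cases, and 0 with a floor of 20 RPKM, which no gene of the 10 reaches. The count of 0 in marrow cells became 1 with a pseudocount of 0.1 RPKM, where the log2 ratio of Tlr2 was -1.08; it was 0 under the other 9 alternatives. The sign of each of the 10 log2 ratios was the same under each pseudocount and scaling. That of Tnfaip3 ranged from -0.21 to -0.05 and that of Il1rl1, whose level is near that of the pseudocount, from -2.39 to -0.19. No paired analysis was possible because each tissue has 1 library, and for the same reason no library could be left out. Depth limits Il1rl1 in heart cells, with 30 reads, more than the other 9.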

Other observations

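Other sensors that feed NF-kB were read from 2 lists drawn up after the values of the 10 genes were seen. Of 8 other cytokine receptor genes 7 reached 1 RPKM and 6 reached 5 RPKM. Of the 6, none was at least 2-fold higher in heart cells and 1 was in marrow cells, against 7.56% and 9.51% of all genes that reached 5 RPKM. That gene was Tnfrsf12a, which encodes the TWEAK receptor, at 174 RPKM in marrow cells and 45.7 in heart cells. The tumour necrosis factor receptor genes Tnfrsf1a and Tnfrsf1b stood at 42.1 and 11.5 RPKM in marrow cells and at 65.6 and 20.0 in heart cells. The IL-17 receptor genes Il17ra and Il17rc lay toward the marrow cells, at 6.24 and 14.3 RPKM there and 3.96 and 7.77 in heart cells, and Il17rd lay the other way, at 2.48 RPKM in marrow cells and 3.60 in heart cells.

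Of 12 genes of cytosolic sensing 8 reached 1 RPKM and 4 reached 5 RPKM. Of the 4, 2 were at least 2-fold higher in heart cells and none was in marrow cells, against 7.56% and 9.51% of all genes that reached 5 RPKM. Nod1, which encodes a sensor of bacterial peptidoglycan, stood at 2.04 RPKM in marrow cells and 6.29 in heart cells, and Tmem173, which encodes the DNA-sensing adaptor STING, at 4.62 and 12.8. Aim2, which encodes a DNA sensor of the inflammasome, had 0 reads in marrow cells and 264 in heart cells. The RNA sensor gene Ddx58 stood at 11.8 and 11.7 RPKM.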
